A study of Mus musculus with 10 samples.

Results

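The matricellular genes Thbs1, Thbs2, Thbs3, Comp, Tnc, Tnxb, Postn, Sparc, Spp1 and Sparcl1 were followed in C3H10 T1/2 cells, a mouse embryo line with mesenchymal properties that can be driven toward bone, cartilage or fat. The RNA-seq labels give the strain as C57BL/6, although the line is usually described as derived from C3H mice. The matricellular genes were taken by name as members of their families, with earlier results of these data known. They are 10 of the 46095 gene symbols in the read count table. RNA was sequenced from 3 libraries of cells under cyclic mechanical strain (CMS) and 3 of static cells (Ctrl). Cells of both groups were plated at 100000 cells/mL on flexible plates coated with type I collagen and grown for 48 h, and in CMS strain was then given at 10% elongation and 0.5 Hz for 8 h a day over 3 days. Open chromatin was mapped by ATAC-seq, in which the Tn5 transposase cuts accessible DNA, in 2 libraries of cells (Piezo1_KO) whose Piezo1, the gene of a force-gated cation channel, was knocked out with CRISPR/Cas9 and in 2 libraries of GFP control cells (GFP). Each ATAC-seq library came from nuclei of 50000 cells, and the labels name no mechanical strain for these cells. Whether the knockout cells were 1 clone or a pool is not given in the sources used here. No RNA of the knockout cells was analysed here, so their Piezo1 deletion was not checked. Of the 29289 regions obtained by merging the peaks of the 4 lists, 22 lay within 5 kb of the body of a matricellular gene.

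Matricellular proteins are secreted into the matrix but act mainly on how cells attach, migrate and read growth factors, rather than as structural fibres. Thrombospondins and tenascins are large multi-domain proteins that bind integrins, collagens and proteases, and COMP is the cartilage and tendon thrombospondin. Periostin, SPARC (osteonectin) and osteopontin (Spp1) are abundant in bone, periosteum and periodontal ligament, where SPARC binds collagen, periostin assists collagen assembly and osteopontin binds mineral and integrins.

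The sequences at 4 gene starts are given because they span the states seen in the peak lists: all of the Tnc window lay under a peak in each of the 4 libraries, the end of the Thbs2 window lay under a peak in GFP 2, and the Postn and Spp1 windows lay under none. Each sequence is the 250 bases before an annotated start, read 5′ to 3′ on the gene's strand, from RefSeq on GRCm38.p6, the assembly behind the mm10 build of the peak lists. The windows are chr4:64047016-64047265 (minus strand) for Tnc, chr17:14694263-14694512 (minus strand) for Thbs2, chr3:54360857-54361106 (plus strand, the downstream of the Postn starts) and chr5:104434861-104435110 (plus strand, the upstream of the Spp1 starts). Capitals mark the matches to the motifs searched on both strands. 
Tnc: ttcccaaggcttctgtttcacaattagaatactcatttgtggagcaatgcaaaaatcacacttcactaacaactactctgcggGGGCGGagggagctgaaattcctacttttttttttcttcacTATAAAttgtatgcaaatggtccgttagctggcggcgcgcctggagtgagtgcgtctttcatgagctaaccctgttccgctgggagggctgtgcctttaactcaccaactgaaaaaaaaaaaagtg
Thbs2: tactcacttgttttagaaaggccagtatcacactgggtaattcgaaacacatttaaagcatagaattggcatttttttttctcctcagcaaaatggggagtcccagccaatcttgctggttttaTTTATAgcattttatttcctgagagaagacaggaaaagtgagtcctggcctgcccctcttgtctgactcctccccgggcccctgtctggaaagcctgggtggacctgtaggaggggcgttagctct
Postn: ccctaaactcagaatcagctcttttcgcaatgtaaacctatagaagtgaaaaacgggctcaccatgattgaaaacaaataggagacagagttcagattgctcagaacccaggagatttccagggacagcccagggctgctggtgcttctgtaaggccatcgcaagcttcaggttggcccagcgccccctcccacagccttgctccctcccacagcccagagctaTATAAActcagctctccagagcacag
Spp1: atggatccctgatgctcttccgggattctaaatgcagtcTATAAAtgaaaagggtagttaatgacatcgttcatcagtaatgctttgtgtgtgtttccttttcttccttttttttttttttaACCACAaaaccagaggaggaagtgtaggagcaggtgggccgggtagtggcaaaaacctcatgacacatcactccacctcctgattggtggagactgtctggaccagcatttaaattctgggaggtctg

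The TATA box was searched as TATAAA, the GC box as GGGCGG, the RUNX site as TGTGGT, the TEAD site as CATTCC and the AP-1 site as TGANTCA, and no 2 matches in these windows overlapped. The downstream Postn window held TATAAA at positions -26 to -21 before the start. The Tnc window held TATAAA at -126 to -121 and GGGCGG at -167 to -162. The Thbs2 window held TATAAA on the opposite strand at -126 to -121, printed as TTTATA. The Spp1 window held TATAAA at -211 to -206 and TGTGGT on the opposite strand at -128 to -123, printed as ACCACA. RefSeq windows were found for 7 of the 10 genes and numbered 10, of which 5 held TATAAA, 3 GGGCGG, 1 TGTGGT, 1 TGANTCA and 0 CATTCC. The 2 windows of Tnc overlap and hold the same TATAAA and the same GGGCGG, which these counts therefore include at both starts. Of all 32851 windows of this length, 12.4% held TATAAA, 32.7% GGGCGG, 14.05% TGTGGT, 6.75% TGANTCA and 12.6% CATTCC. A match describes the letters of the window and shows no bound factor. Thbs1, Comp and Sparcl1 are named without a sequence.

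The RNA-seq libraries held 37233101 to 41024689 counts in CMS and 36150738 to 38491897 in Ctrl. CMS 1 and Ctrl 3 stood apart from their groups, since the chi-square between libraries, divided by its degrees of freedom, came to 48.2 and 37.7 for CMS 1 and to 40.5 and 64.7 for Ctrl 3 within their groups, and to 16.9 for the remaining CMS pair and 9.78 for the remaining Ctrl pair. Of 12 mesenchymal markers, 11 were tested, and 1 was higher and 6 lower under strain. Their summed level was 36285 to 42029 CPM in CMS and 59489 to 60623 CPM in Ctrl, and Thy1 was under 1 CPM in all 6 libraries. Most of that sum came from Col1a1, Col1a2 and Vim, which averaged 18809, 15611 and 3470 CPM in CMS and 30457, 22865 and 4807 CPM in Ctrl. The marker that rose was Ly6a (log2 fold change 0.70). Pdgfra (−0.032), Pdgfrb (−0.037), Eng (−0.35) and Prrx1 (0.19) were not called. Macrophage and osteoclast markers summed to 87.5 to 99.9 CPM in CMS and 62.9 to 73.9 CPM in Ctrl, with Cd14 and Ctsk higher and Ptprc and Tyrobp at 0 counts in all 6 libraries. Of 7 epithelial markers 3 were tested and 2 were lower, with sums of 5.00 to 10.1 CPM in CMS and 27.8 to 40.6 CPM in Ctrl and Epcam at 0 counts in every library. Of 8 chondrocyte markers, of which Comp is 1, 4 were tested and only Comp was lower, with sums of 55.3 to 78.6 CPM in CMS and 68.4 to 77.4 CPM in Ctrl, Matn1 at 0 counts and Acan under 1 CPM in every library. Both tested skeletal muscle markers of 7 listed, Des and Tnnt1, were lower, with sums of 1.70 to 1.92 CPM in CMS and 3.32 to 4.64 CPM in Ctrl and Myod1, Myog, Myf5 and Ckm at 0 counts. Of 6 adipocyte markers 2 were tested and Fabp4 was higher, with sums of 14.6 to 16.5 CPM in CMS and 10.8 to 15.2 CPM in Ctrl and Lep at 0 counts. No endothelial or neural and glial marker was called. Among all genes tested, 5.94% were called higher and 7.39% lower. The part of these shifts in the matricellular results was not tested. In bulk RNA, fewer cells of a type and less RNA per cell cannot be told apart.

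The first comparison asked how the matricellular genes differ between strained and static cells. Of them, 4 fell under strain: Comp, the cartilage thrombospondin, Sparc, Tnc (tenascin C) and Postn (periostin). The fall was to 0.340 of the static mean for Comp, 0.615 for Sparc, 0.635 for Tnc and 0.768 for Postn. None rose. Thbs1, Thbs2, Thbs3, Spp1 and Sparcl1 were tested and not called, and Tnxb (tenascin X) had too few counts to be tested. All 10 genes together took 1.14% to 1.25% of the counts in CMS libraries and 1.496% to 1.517% in Ctrl libraries.

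Genes were called with edgeR's quasi-likelihood test at a Benjamini-Hochberg adjusted p under 0.05 over 15335 genes. Of the 9 matricellular genes tested, 4 were lower and 0 higher, where 7.39% of all genes tested were lower and 5.94% higher. At an unadjusted p under 0.05 in the same test 1 member was higher, Sparcl1, where 14.5% of all genes tested were, while DESeq2 and limma-voom with adjusted p called 0 higher. The median log2 fold change was −0.26 over the 9 genes, which is the value of Thbs1, and 0.0049 over all genes tested. The median of the 9 turned on single libraries. It was −0.034 without CMS 1, −0.070 without Ctrl 2, −0.45 without CMS 2 and −0.43 without Ctrl 3. That of all genes was −0.012, −0.0012, 0.0051 and 0.0097 in the same order. Comp and Sparc stayed called lower in each of these fits. The 10 genes are a named list, chosen with earlier results of these data known, and not a random draw. These shares are therefore given side by side with no test. Levels are given as CPM, read counts relative to the TMM-scaled library size, and are not compared between genes because gene length was not taken into account.

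**Figure D1:**
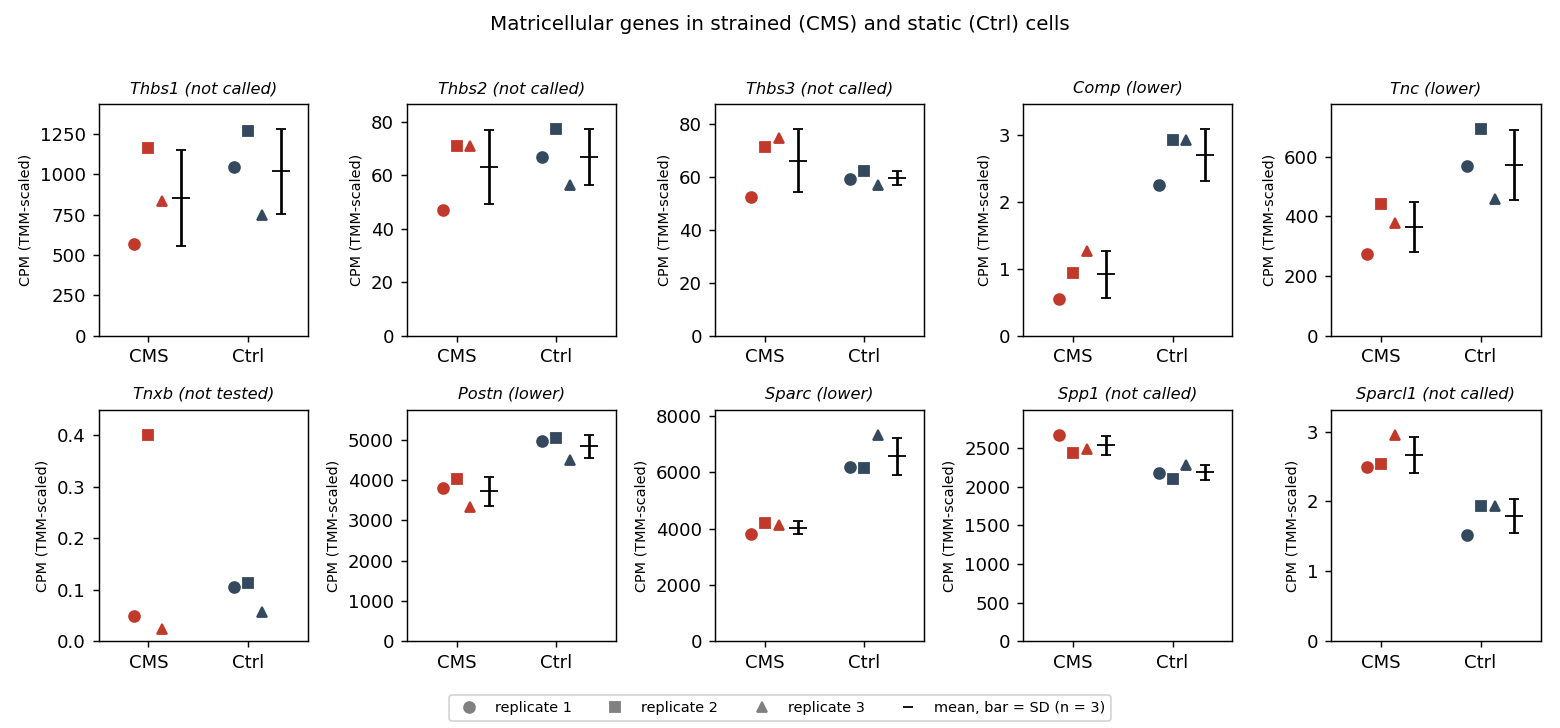
Level of each gene in every library, in CPM with TMM scaling on a linear axis from 0, with CMS left of Ctrl; points are replicates, and the bar beside them is the mean with its SD (n = 3 each, not drawn for Tnxb, which was not tested). The CMS and Ctrl libraries of Comp, Tnc, Postn and Sparc do not overlap, with CMS lower, and those of Spp1 and Sparcl1 do not overlap, with CMS higher.

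Among the thrombospondins, Thbs1, which binds CD47 and integrins and can activate latent TGF-β, had 566, 1162 and 832 CPM in CMS 1 to 3, against 1045, 1267 and 745 CPM in Ctrl 1 to 3. The groups overlapped, and CMS 1 and Ctrl 3 were the low libraries of their groups. The log2 fold change of Thbs1 was −0.26, with a 95% interval of −0.80 to 0.29 (edgeR quasi-likelihood, Benjamini-Hochberg adjusted p = 0.521). It was −0.034 without CMS 1, −0.070 without Ctrl 2, −0.44 without Ctrl 3 and −0.55 without CMS 2, and Thbs1 was called in none of the 6 fits without 1 library. Thbs2, a related inhibitor of vessel growth, had 47.0, 71.2 and 71.2 CPM in CMS, against 66.9, 77.4 and 56.5 CPM in Ctrl. Its low libraries were again CMS 1 and Ctrl 3, the groups overlapped, and its log2 fold change was −0.085 with an interval of −0.46 to 0.29 (edgeR adjusted p = 0.779). The direction of Thbs2 turned without CMS 1 (log2 fold change 0.087) and without Ctrl 2 (0.032).

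Thbs3, which shares the subunit organisation of COMP and acts in skeletal growth in mice, had 52.4, 71.2 and 74.7 CPM in CMS, against 59.3, 62.1 and 57.0 CPM in Ctrl. Here CMS 1 lay below every Ctrl library and CMS 2 and 3 above every one, so the groups overlapped. Its log2 fold change was 0.15, with an interval of −0.14 to 0.45 (edgeR adjusted p = 0.483), and it was 0.29 without CMS 1, 0.092 without CMS 2 and 0.049 without CMS 3. With both CMS 1 and Ctrl 3 left out it was 0.26 and passed the threshold (edgeR adjusted p = 0.0481). CMS 1 and Ctrl 3 were thus the low libraries of all 3 genes, so their spread within a group was not independent from gene to gene.

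Comp, whose product binds collagens of cartilage and tendon, had 23, 35 and 52 counts in CMS 1 to 3, against 86, 104 and 103 counts in Ctrl 1 to 3. These correspond to 0.552, 0.935 and 1.26 CPM in CMS and 2.25, 2.92 and 2.93 CPM in Ctrl. Every strained library was below every static one, with means of 0.916 ± 0.354 CPM in CMS and 2.70 ± 0.392 CPM in Ctrl (SD, n = 3 each). The log2 fold change was −1.56 (SE 0.32, 95% interval −2.27 to −0.84), with an adjusted p of 0.0111 in edgeR's quasi-likelihood test. Comp remained called in each of the 6 fits without 1 library, with a log2 fold change from −1.87 to −1.29. It is the gene with the widest interval among the 4 that fell, and it rests on 110 reads in CMS and 293 in Ctrl.

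The tenascins showed 1 gene that fell and 1 below the filter. Tnc, a tenascin of tendon, healing wounds and other loaded tissue, had 274, 441 and 377 CPM in CMS 1 to 3, against 567, 693 and 459 CPM in Ctrl 1 to 3. The highest CMS library, CMS 2, was just below the lowest Ctrl library, Ctrl 3. Means were 364 ± 84.2 CPM in CMS and 573 ± 117 CPM in Ctrl (SD, n = 3 each), and the log2 fold change was −0.66 (SE 0.19, interval −1.07 to −0.25; edgeR adjusted p = 0.0425). The call was lost without CMS 1 (log2 fold change −0.49, edgeR adjusted p = 0.0975), CMS 3 (−0.69, 0.106), Ctrl 1 (−0.66, 0.105) or Ctrl 2 (−0.50, 0.0863). Tnxb, whose product organises collagen in skin and whose loss in humans causes a form of Ehlers-Danlos syndrome, had 2, 15 and 1 counts in CMS, against 4, 4 and 2 counts in Ctrl. Of its 18 CMS reads, 15 came from CMS 2, and no difference was tested.

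Postn, a fasciclin-domain protein of periosteum and periodontal ligament, had 3797, 4034 and 3328 CPM in CMS 1 to 3, against 4980, 5035 and 4511 CPM in Ctrl 1 to 3. All strained libraries were below all static ones, with CMS 3 and Ctrl 3 lowest in their groups. Means were 3720 ± 359 CPM in CMS and 4842 ± 288 CPM in Ctrl (SD, n = 3 each), and the log2 fold change was −0.38 (SE 0.11, interval −0.63 to −0.13; edgeR adjusted p = 0.0469). This call lay near the threshold. It was lost without CMS 1 (edgeR adjusted p = 0.0657), CMS 2 (0.0708), CMS 3 (0.162), Ctrl 1 (0.169) or Ctrl 2 (0.102), with at least 10 counts required in all libraries (0.0536) and with library size alone as scaling (0.0669).

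In the SPARC family the members gave different results. Sparc, a collagen chaperone and the osteonectin of bone, had 3790, 4197 and 4120 CPM in CMS 1 to 3, against 6191, 6167 and 7335 CPM in Ctrl 1 to 3. Ctrl 3 was the highest library, and CMS libraries lay well under the lowest static one. Means were 4036 ± 216 CPM in CMS and 6565 ± 667 CPM in Ctrl (SD, n = 3 each). The log2 fold change was −0.70 (SE 0.11, interval −0.95 to −0.46; edgeR adjusted p = 0.00275), and it was −0.75 to −0.61, and called, in all 6 fits without 1 library. Sparcl1 (hevin), the closest relative of Sparc, had 104, 95 and 122 counts in CMS, against 58, 69 and 68 counts in Ctrl. Every CMS library was above every Ctrl library, at 2.66 ± 0.254 CPM in CMS and 1.80 ± 0.243 CPM in Ctrl (SD, n = 3 each). Its log2 fold change was 0.57 with an interval of 0.060 to 1.08, and its adjusted p of 0.127 in edgeR's quasi-likelihood test was above the threshold.

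Spp1, an acidic phosphoprotein that binds mineral and integrins, had 2673, 2437 and 2493 CPM in CMS 1 to 3, against 2172, 2098 and 2284 CPM in Ctrl 1 to 3. Each CMS library was above each Ctrl library, with means of 2534 ± 124 CPM in CMS and 2185 ± 94.1 CPM in Ctrl (SD, n = 3 each). The log2 fold change was 0.21 with an interval of −0.0034 to 0.43, and the gene was not called (edgeR adjusted p = 0.174). Spp1 and Sparcl1 were the 2 members whose libraries separated with CMS higher, where 17.4% of all genes tested did so, and the 4 called members separated with CMS lower, where 17.9% did so.

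**Figure D2:**
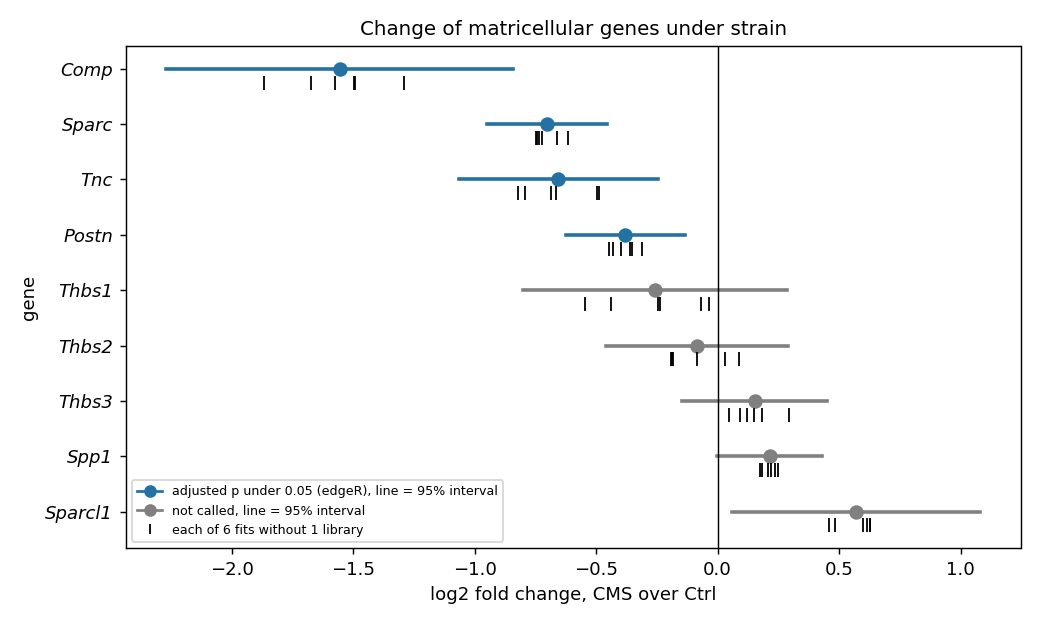
Log2 fold change of CMS over Ctrl for the 9 genes tested, with the 95% interval from edgeR's quasi-likelihood fit as a line and the 6 fits without 1 library as ticks. Comp, Sparc, Tnc and Postn lie left of 0 with their whole intervals, while ticks of Thbs2 fall on both sides of 0.

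Ratios of 2 members within a library do not depend on the scaling between libraries. Osteopontin reads per osteonectin read (Spp1/Sparc) were 0.705, 0.581 and 0.605 in CMS 1 to 3, against 0.351, 0.340 and 0.311 in Ctrl 1 to 3. The balance of these bone matrix transcripts was thus higher in every strained library, by 0.91 on the log2 scale. The ratio Tnc/Thbs1 was 0.484, 0.379 and 0.453 in CMS and 0.543, 0.546 and 0.616 in Ctrl, with no overlap although Thbs1 itself overlapped. The ratio Postn/Sparc was 1.00, 0.961 and 0.808 in CMS and 0.804, 0.816 and 0.615 in Ctrl, and these overlapped. In all, 6 ratios were computed, and 5 of them (Spp1/Sparc, Sparcl1/Sparc, Comp/Thbs3, Tnc/Thbs1 and Spp1/Postn) separated the groups, where 34.6% of the ratios between any 2 tested genes with reads in every library did so. The 6 were formed with the directions of these genes known, so the share is read no further. A two-sided exact permutation test gave p = 0.1 for each of these 5, which is the smallest p that 3 against 3 libraries allow, and p = 0.2 for Postn/Sparc (0.12 and 0.2 after Benjamini-Hochberg adjustment over the 6).

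**Figure D3:**
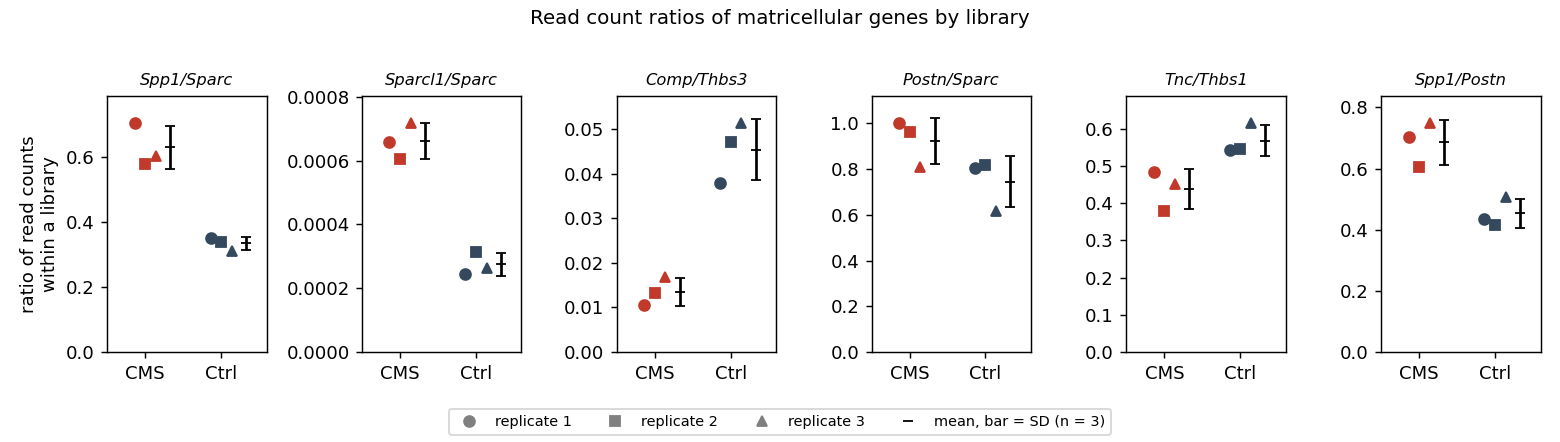
Ratio of the read counts of 2 genes within each library, on linear axes from 0, with CMS left of Ctrl; points are replicates and the bar is the mean with its SD (n = 3 each). Spp1/Sparc averages 0.630 in CMS and 0.334 in Ctrl, and Postn/Sparc is the ratio whose groups overlap.

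Some members overlap another annotated gene, and whether counting used the strand is not given in the sources used here, so such reads cannot be told apart. The lengths below are of whole gene bodies, introns included, and do not measure shared reads. Tnc shares 62285 bp with the opposite-strand lncRNA 8030451A03Rik, which had 0 to 1 counts in CMS and 1 to 5 in Ctrl. Postn shares 1410 bp with the opposite-strand lncRNA Gm31095, which had 4 to 7 counts in CMS and 4 to 10 in Ctrl. Comp overlaps Gm51533 by 1313 bp, Thbs3 overlaps LOC115489723 by 1308 bp, and Sparcl1 overlaps LOC330143 by 10320 bp. Tnxb overlaps the pseudogene Cyp21a2-ps by 385 bp and contains the snRNA gene Gm24389. Gm51533, LOC115489723, LOC330143 and Gm24389 have no entry under these names in the read count table.

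The genes whose pattern over the 6 libraries was most like that of each called member were found by the root mean square difference of centred log2 CPM among 10242 genes. For Sparc they were Cd74, the invariant chain of MHC class II (0.0345), and the homeodomain gene Hopx (0.0422). For Postn they were the kinase gene Dclk1 (0.0513) and Bcl2l11, which encodes the death regulator BIM (0.0530). For Tnc they were the VEGF receptor gene Flt4 (0.0596) and Sh3tc2 (0.0786), and for Comp the osteoblast transcription factor gene Sp7 (0.217) and the cadherin gene Cdh17 (0.220). Of these neighbours, Flt4, Sh3tc2 and Bcl2l11 were not called under strain (edgeR adjusted p = 0.129, 0.0769 and 0.0785), and the others were called lower. The nearest genes of Comp were thus farther from it than those of the other 3 members from theirs. The distance was not scaled to the size of a gene's change, and Comp had the largest log2 fold change and the fewest reads of the 4. Its average log2 CPM of 0.88 was also below the 2 required of the genes searched. What sets the distance was not tested.

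Genes around the matricellular proteins were read from the same fit in 5 lists. Of 111 listed genes 98 were tested, of which 11 were higher and 20 lower under strain, with a median log2 fold change of −0.046. Beside these counts and those of each list below stand 5.94% higher and 7.39% lower among all genes tested. The lists were chosen by name, with earlier results of these data known, and no test was made of their counts. Of 14 other family members 7 were tested, and Ibsp (bone sialoprotein) and Smoc1, a SPARC-related basement membrane protein, fell while 0 rose. Ibsp had 0, 7 and 0 counts in CMS 1 to 3, against 75, 67 and 80 counts in Ctrl 1 to 3, so all 7 CMS reads came from CMS 2. Its fitted log2 fold change of −5.04 (edgeR adjusted p = 0.00187) depends on the prior count and is no bound. It was −9.29 without CMS 2, −4.46 without CMS 1 or CMS 3 and −6.05 with limma-voom. Smoc1 averaged 2.43 ± 0.633 CPM in CMS and 6.31 ± 1.45 CPM in Ctrl (SD, n = 3 each; log2 fold change −1.37, edgeR adjusted p = 0.00514). The median of the 7 was −0.26. Thbs4, Dspp and Spock1 had 0 counts in all 6 libraries.

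Of 22 receptor genes 20 were tested, and 1 rose and 2 fell; their median log2 fold change was 0.054. Itga8, an integrin chain that binds osteopontin and tenascin C, had 1.35, 2.16 and 1.91 CPM in CMS, against 3.998, 5.62 and 2.87 CPM in Ctrl (log2 fold change −1.20, edgeR adjusted p = 0.0225). Sdc4, a heparan sulfate proteoglycan of focal adhesions, fell by 0.35 on the log2 scale (edgeR adjusted p = 0.0455). The call of Itga8 was lost without CMS 1, CMS 3, Ctrl 1 or Ctrl 2 (edgeR adjusted p from 0.0555 to 0.0665). That of Sdc4 was lost without any 1 library except Ctrl 2 (from 0.0673 to 0.169) and with library size alone as scaling (0.0705).

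Of 25 matrix binding partners 22 were tested, and 8 fell and 1 rose; their median log2 fold change was −0.30. The largest falls were in Fmod (fibromodulin, −2.20) and Dcn (decorin, −1.02), small proteoglycans of collagen fibrils, and in the fibrillar collagen genes Col3a1 (−0.92) and Col1a1 (−0.70), and versican (Vcan) rose by 1.32. Col1a1 had 17031, 19833 and 19564 CPM in CMS, against 30336, 30779 and 30255 CPM in Ctrl, with edgeR adjusted p = 0.00236. Its log2 fold change was close to the −0.70 of Sparc, whose product binds its chains.

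Of 20 proteases and modifying enzymes 19 were tested, and 7 rose and 4 fell; their median log2 fold change was 0.15. The largest rises were in Mmp3 (1.66) and Mmp13 (0.92), metalloproteinases of the matrix, in Adamts7 (0.89), whose product cleaves COMP, and in Fam20c (0.68), the secretory kinase that phosphorylates osteopontin. Adamts7 had 41.4, 54.8 and 58.2 CPM in CMS, against 28.7, 28.7 and 25.8 CPM in Ctrl (edgeR adjusted p = 0.00227). Fam20c had 163, 193 and 191 CPM in CMS, against 111, 118 and 112 CPM in Ctrl (edgeR adjusted p = 0.00203). In both, every CMS library lay above every Ctrl library. Among those that fell were Mmp9 (−1.73), Adamts5 (−0.60) and the serine protease gene Htra1 (−0.53). The call of Htra1 was lost without CMS 2 (edgeR adjusted p = 0.0520) or CMS 3 (0.0539).

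Of 30 upstream signals and transcription factors all were tested, and 2 rose and 4 fell; their median log2 fold change was 0.043. The hypoxia factor gene Hif1a rose by 0.64 and the TGF-β receptor gene Tgfbr1 by 0.47, while Sp7 (−1.76), Tgfb2 (−0.54), Twist1 (−0.51) and Tgfb3 (−0.35) fell. Tgfb3 had an adjusted p of 0.0360 in edgeR's test, and its call was lost in all 6 fits without 1 library (from 0.0537 to 0.105) and with library size alone (0.0522). Tgfbr1 had an adjusted p of 0.0441 in edgeR's test and lost its call without any 1 library except Ctrl 2 (from 0.0652 to 0.152). The call of Tgfb2 was lost without CMS 3 (edgeR adjusted p = 0.0700) or Ctrl 1 (0.0693). Genes whose products respond to actin tension, such as Yap1 (log2 fold change 0.094, edgeR adjusted p = 0.567), Wwtr1 (0.16, 0.401) and Srf (−0.051, 0.834), were not called. The activity of their products was not measured, and these genes were singled out after their values were seen.

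**Figure D4:**
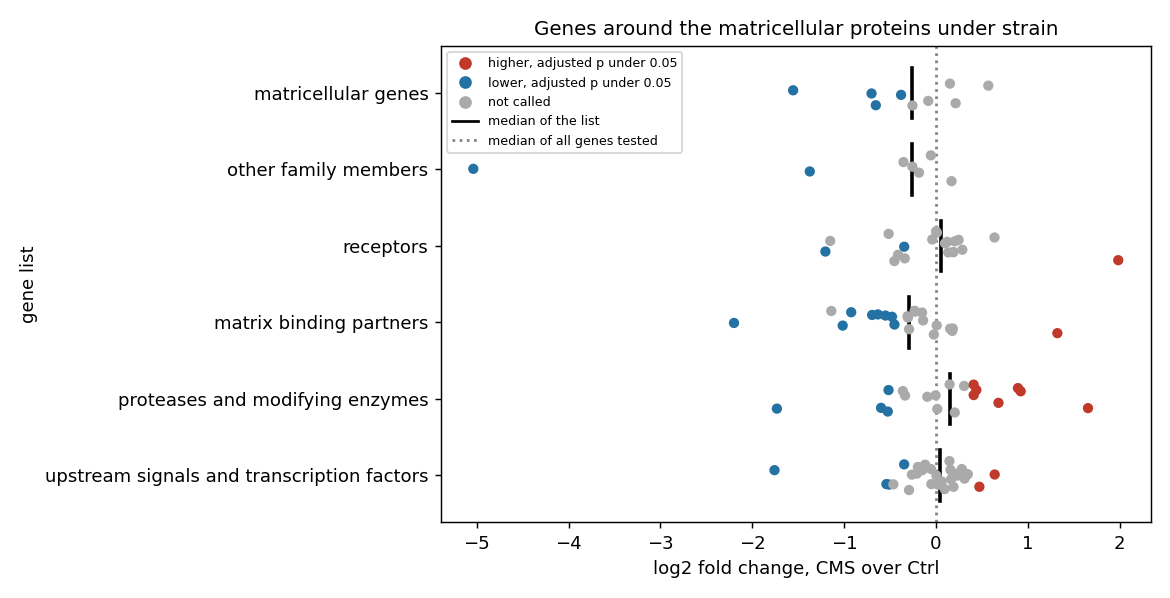
Log2 fold change of CMS over Ctrl for every tested gene of the matricellular set and of the 5 lists, 1 point per gene, coloured by the edgeR call; short lines are the medians of the lists and the dotted line is the median of all genes tested. Ibsp is the point at −5.04 and Vcan the higher point among the matrix binding partners, at 1.32.

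The second comparison asked where chromatin around the same genes was open in Piezo1_KO and in GFP cells. Thbs3, Comp and Tnc had a region that held a peak in all 4 libraries, and only at Tnc did such a region cover the gene's own start. Peaks beside Thbs1 and before the start of Sparc were in both GFP lists and, apart from 1 of the Thbs1 regions, in neither Piezo1_KO list. Beside Thbs1 also lies the start of the lncRNA gene Gm13986. No region near a matricellular gene was in both Piezo1_KO lists and in neither GFP list. Postn and Spp1 had no peak within 5 kb in any library.

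Peaks were called by the authors for each library, and the lists held 15980 and 13610 peaks in Piezo1_KO 1 and 2 and 15978 and 26652 in GFP 1 and 2. GFP 2 had the longest list, and the part of list length in what is present or absent was not tested. The lists hold no read counts, and no test was made between the 2 groups of 2 libraries. At least 1 peak lay within 5 kb of 8 of the 10 genes in some library, where 56.6% of 21631 protein-coding genes had one. By library, 5 and 5 of the 10 had a peak in Piezo1_KO 1 and 2, and 6 and 8 in GFP 1 and 2, where 44.7%, 43.1%, 42.6% and 54.3% of protein-coding genes had one in the same order of libraries. In all 4 libraries 4 genes had a peak (Thbs3, Comp, Tnc and Tnxb), where 35.3% of protein-coding genes had one. A longer gene offers a wider window, and the bodies of these genes span 5943 bp (Spp1) to 87231 bp (Tnc).

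Of the 22 regions, 4 were in all 4 libraries, where 26.4% of all regions were. In both GFP lists and neither Piezo1_KO list were 4 regions, where 10.6% of all regions were, and in both Piezo1_KO lists and neither GFP list were 0, where 1.57% were. In 1 Piezo1_KO list and neither GFP list were 5 regions, where 9.19% of all were. In GFP 2 alone were 6 regions, where 30.3% of all were. With each list cut to its 10000 strongest peaks, 13 regions were near the genes, of which 2 were in both GFP lists alone and 1 in both Piezo1_KO lists alone. The shares of all regions under this cut were not computed.

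At Tnc, 1 region of 768 bp ran from position -631 before the gene start to 136 past it, over the sequence shown above. The authors' fold enrichment of its peak over local background was 5.00 and 4.51 in Piezo1_KO 1 and 2, against 5.67 and 8.71 in GFP 1 and 2. Such folds belong to each list and were not compared across lists. Thbs2, by contrast, had a peak over its start in GFP 2 alone, from position -22 before it to 233 past it, with a fold of 4.09.

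Thbs1 had 3 regions beyond the low-coordinate end of its body, the nearest 247 bp from it. The strand of Thbs1 is not in the tables used here, so these are not placed before or after the gene. The 2 outer ones overlapped the lncRNA gene Gm13986, with folds of 4.43 and 4.50 in GFP 1 and of 4.52 and 4.03 in GFP 2, and were in no Piezo1_KO list. The inner one was in Piezo1_KO 1 with a fold of 4.45, against 5.74 and 4.97 in GFP 1 and 2, and not in Piezo1_KO 2. The inner and the middle region overlapped the promoter window of Gm13986, and no promoter window was available for Thbs1. Which of the 2 genes these peaks belong to was not tested. Among these libraries the Thbs1 flank thus held 1 and 0 peaks in Piezo1_KO and 3 and 3 in GFP.

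Thbs3 had a region at positions -1195 to -732 before its start, on the promoter window of its neighbour Mtx1, with folds of 5.47 and 6.67 in Piezo1_KO, against 5.89 and 8.56 in GFP. Another lay 12082 to 12686 bp past the start, beyond the far end of the gene, and was also in all 4 libraries. One more, in Piezo1_KO 2 alone, lay inside Mtx1. The region of Comp lay 1099 bp beyond its low-coordinate end and was 710 bp wide, inside Gm51533, with folds of 5.88 and 4.66 in Piezo1_KO, against 5.00 and 5.81 in GFP. So none of the 4-library regions at Thbs3 and Comp fell on the body of the gene itself.

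Sparc had no region in common between the groups. Piezo1_KO 2 had a peak 77 to 336 bp inside the gene with a fold of 4.46, and GFP 1 and 2 had peaks that together covered positions -4064 to -3658 before the start with folds of 4.05 and 3.55. Sparcl1 had 1 region, in GFP 2 alone, across the high-coordinate end of its body. Tnxb, with a body of 59363 bp, had 10 regions, the most of any member, although it was nearly without reads in the RNA-seq libraries, which came from other cultures. None of its 10 regions was in all 4 lists; 1 was in both GFP lists alone, 4 were in GFP 2 alone and 3 in a single Piezo1_KO list. A region 40351 to 40792 bp past the low-coordinate end of its body was in both Piezo1_KO lists (folds 5.95 and 6.29) and in GFP 2 (5.26). That end is at chr17:34660453, while the start used for its RefSeq window is at chr17:34670535.

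**Figure D5:**
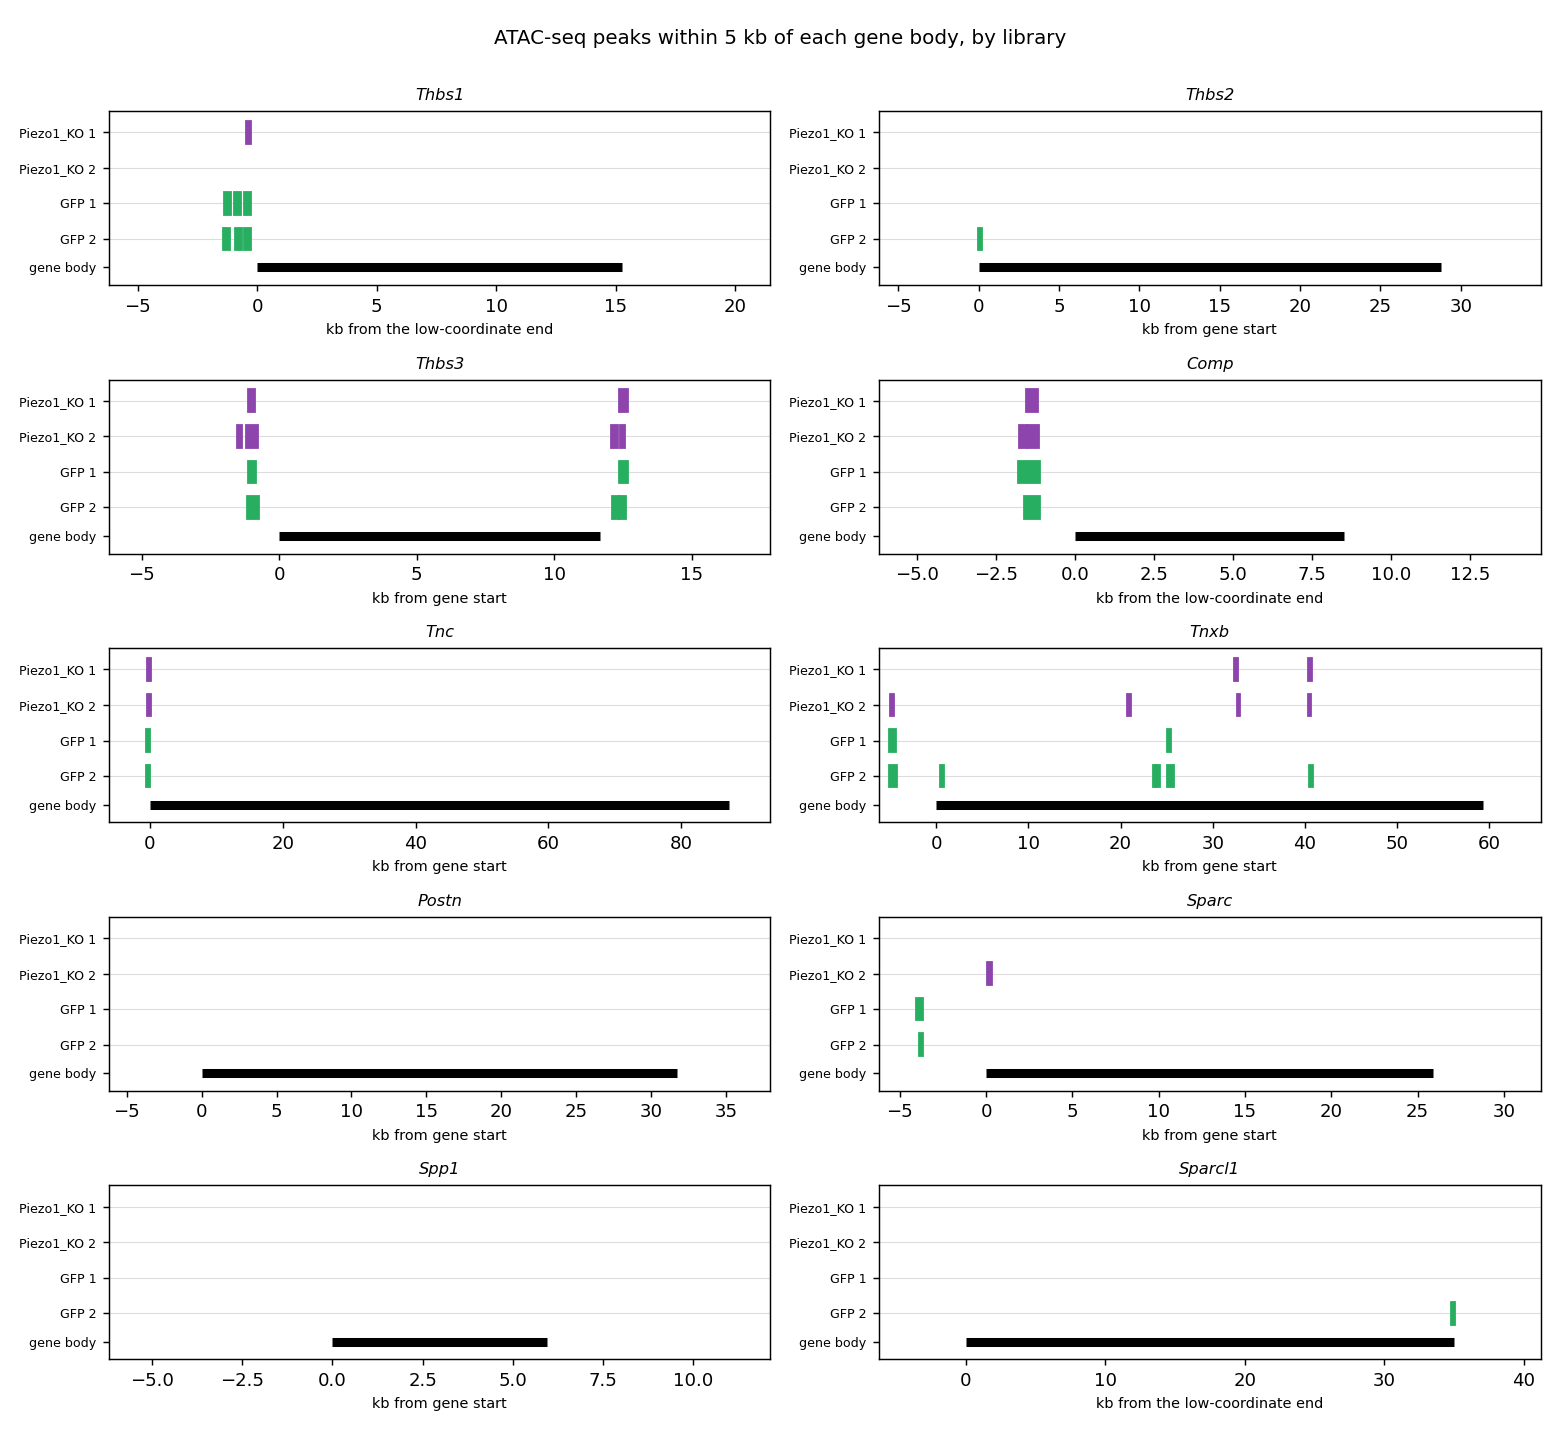
ATAC-seq peaks within 5 kb of each gene body by library, with the Piezo1_KO rows above the GFP rows and the gene body as a black bar; the x axis is the distance in kb from the gene start, or from the low-coordinate end for Thbs1, Comp and Sparcl1. For Tnxb the axis starts at the low-coordinate end of its body and not at the start of its RefSeq window. Narrow peaks are drawn at a minimum width so that they can be seen. Tnc has a peak at its start in all 4 rows, and the panels of Postn and Spp1 are empty.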

How the data were processed

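The 6 RNA-seq libraries share a table of whole-number read counts, deposited by the authors without normalization. It was made with Trim Galore 0.6.5, STAR and HTSeq on mm10, with DESeq2 also named, per the submitters' processing notes. Not given in the sources used here are the annotation, the strandedness and the treatment of multiply mapped reads. The cDNA came from a single-cell full-length amplification kit, per the labels' protocols, so reads need not be independent molecules. ATAC-seq gave 1 peak list per library (Trim Galore 0.6.5, Bowtie2 2.4.2 and MACS2, per the submitters' processing notes), in which each peak has the authors' fold enrichment, a ratio, and −log10 p and −log10 q values as deposited.

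Counts were fitted with edgeR 4.0.16 (TMM, filterByExpr, glmQLFit and glmQLFTest, two-sided, all 6 libraries, no block) in R 4.3.3, with Benjamini-Hochberg adjustment over 15335 genes and a threshold of 0.05. The SE of a log2 fold change is its size divided by the square root of F. DESeq2 1.42.0 and limma-voom (limma 3.58.1) were alternatives, beside other scalings, filters, a replicate block and each library left out. The edgeR fit was also run on simulated counts as a check of the code. Those counts were drawn independently for each gene, with no library set apart from its group, so the run does not bear on single calls here. Peaks were merged with bedtools 2.31.1 at an overlap of 1 bp, and gene bodies and starts came from RefSeq tables of GRCm38.p6.

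Nothing in the labels says that replicates are separate cultures, and p-values therefore reflect a spread that may be technical. The matricellular genes and the gene lists were chosen with earlier results of these data known. All members are named, and of each list up to 4 called genes per direction by size of log2 fold change, or all where 5 or fewer were called; some of these are not reported here. For each called member the 2 nearest genes were taken from genes with a mean log2 CPM of 2 or more, and predicted, clone-named and pseudogene models were passed over. ATAC-seq read depth is unknown.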

Additional observations from a re-analysis of the deposited data

How the results depend on the processing

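Comp and Sparc were called lower in every fit run, Tnc in every fit except 4 without 1 library, and Postn in every fit except 5 without 1 library, the stricter count filter and library size alone. Of the members, 4 were lower with all libraries and 2 to 4 without 1 library (2 without CMS 1, CMS 3, Ctrl 1 or Ctrl 2), and 0 were higher except 1 (Thbs3) without both CMS 1 and Ctrl 3. The log2 fold change of Thbs2, −0.085, was −0.19 to 0.087 without 1 library and changed direction without CMS 1 (0.087) and Ctrl 2 (0.032). Among all genes, 911 were higher and 1134 lower; without 1 library the counts were 369 to 1085 and 577 to 1244, without a filter on low counts 1428 and 1574, with DESeq2 1320 and 1540, and without both CMS 1 and Ctrl 3 1512 and 1614. Library size alone gave 1169 higher and 935 lower. Listed genes were 11 higher and 20 lower, and 7 to 10 and 13 to 20 without 1 library, and 14 and 28 without both. With the replicate number as a block, 1557 genes were higher and 1619 lower, and 4 members lower. In that fit the edgeR adjusted p was 0.00738 for Tnc and 0.019 for Postn. Deviations of same-numbered libraries correlated at 0.0278, 0.208 and 0.0943 over genes, and those of differently numbered ones at −0.187 to 0.0905. Each Ctrl library correlated most with the CMS library of its own number, while CMS 1 correlated more with Ctrl 3 (0.0905) than with Ctrl 1. The labels do not say that a number marks a shared culture or day, so the main fit did not take the numbers as pairs. Without 1 ATAC-seq library, regions near the members numbered 17 to 23, those in every Piezo1_KO list alone 0 to 4 (4 without Piezo1_KO 1), those in every GFP list alone 4 to 10 (10 without GFP 1), and members with a peak 6 to 8. With a 10 kb window 1 region was in both Piezo1_KO lists alone. With the 10000 strongest peaks of each list 13 regions and 5 members with a peak were left, 1 region in both Piezo1_KO lists alone and 2 in both GFP lists alone. The shares of all regions under these settings were not computed, so these region counts are read no further. Without GFP 1 the GFP list left was GFP 2, the longest. In the merge of all 4 lists 30.3% of regions were in GFP 2 alone. Where an alternative uses fewer libraries, peaks or genes, its calls come from fewer data, and for the rest the cause was not tested. Depth limits Comp, Tnxb, Sparcl1 and Ibsp.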

Other observations

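Sparcl1 and Spp1 lie in 1 stretch of chromosome 5 (chr5:104079108-104441053, 362 kb on GRCm38.p6) with Dspp, Dmp1, Ibsp and Mepe between them, the cluster of secreted calcium-binding phosphoproteins of bone and tooth. These 6 were its only protein-coding genes. Along the cluster, Sparcl1 averaged 2.66 CPM in CMS and 1.80 CPM in Ctrl, and Ibsp 0.0624 CPM in CMS and 2.04 CPM in Ctrl. Spp1 averaged 2534 CPM in CMS and 2185 CPM in Ctrl. Only the Ibsp difference was called, so no difference in direction along the cluster is read from these means. Dmp1 had 1, 2 and 11 counts in CMS and 9, 6 and 8 counts in Ctrl, Mepe had 1 count in all, and Dspp had none. This stretch held 8 and 2 ATAC-seq peaks in Piezo1_KO 1 and 2, against 3 and 8 in GFP 1 and 2. Within 5 kb of Dspp, Ibsp, Mepe and Spp1 there was no peak in any list, and Dmp1 had 2 and 0 in Piezo1_KO and 1 and 1 in GFP.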
